A study of Mus musculus with 10 samples.

Results

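The 37 genes of the mouse mitochondrial genome were examined in RNA from isolated pancreatic islets. They were the genes of the deposited table whose Ensembl identifier maps to a symbol beginning mt-, which gave 37 of 52178 genes listed, and of these 27 had a count in at least 1 library. The mice were C57Bl/6 males, all retired breeders, and each of the 2 groups gave 5 libraries, sedentary 1 to 5 and exercise 6 to 10. The exercise mice had acclimatized to a treadmill for 3 days and then ran on it for 1 h on 5 days of the week. This went on for 2 weeks, with the belt at 17 cm/s and inclined by 5 degrees. The islets of both groups were freed with collagenase, picked by hand and plated in medium with 11 mM glucose. The comparison asked whether the transcripts of the mitochondrial genome differed between islets of exercised and sedentary mice. Whether every library came from a separate mouse is not said in the labels. The p-values below therefore rest on how far libraries vary, and some of that variation may be technical.

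The mitochondrial genome is a small circular DNA present in many copies per cell. Its protein genes encode core subunits of the respiratory chain and of the ATP synthase, its ribosomal RNAs form the ribosome that translates them, and its transfer RNAs lie between the other genes and mark where the long precursor RNAs are cut. All other subunits, and every enzyme that copies or transcribes this DNA, are encoded in the nucleus. In islet beta cells the respiratory chain turns glucose oxidation into the ATP signal that triggers insulin release.

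Per the GENCODE M21 annotation (GRCm38), 12 of the 13 protein genes were read in one direction and 1, mt-Nd6, in the other, together with 8 of the 22 transfer RNAs. Genomic positions are not printed because the sources used here do not give the build and annotation behind the counts. The genes are packed so tightly that 3 pairs of protein genes on the same strand shared bases. mt-Atp8 and mt-Atp6, 2 subunits of the ATP synthase, shared 43 bases, mt-Nd4l and mt-Nd4 of complex I shared 7, and mt-Atp6 and mt-Co3 shared 1. mt-Nd5 and mt-Nd6 shared 14 bases on opposite strands. Reads from shared bases of 1 strand cannot be assigned to one gene alone, so the counts of mt-Atp8, mt-Atp6, mt-Nd4l and mt-Nd4 are uncertain to that extent. The whole mt-Atp8 transcript is shown because 43 of its 204 bases, in capitals, are also the start of mt-Atp6.
mt-Atp8: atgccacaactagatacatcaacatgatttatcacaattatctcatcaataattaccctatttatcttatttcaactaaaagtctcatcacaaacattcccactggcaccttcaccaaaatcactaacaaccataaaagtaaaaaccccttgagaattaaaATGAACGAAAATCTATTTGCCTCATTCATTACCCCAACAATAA

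Several of these genes end without a full stop codon. The last 30 bases of 5 protein genes are shown because 3 of them lack the end of their stop codon, with the last codon, or the part of it that the gene encodes, in capitals. mt-Nd4, mt-Cytb and mt-Co3 ended in a single T, and in such genes the tail is known to complete the stop codon TAA. mt-Co1 and mt-Nd6 encoded it in full.
mt-Nd4: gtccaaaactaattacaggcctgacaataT
mt-Cytb: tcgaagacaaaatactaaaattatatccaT
mt-Co3: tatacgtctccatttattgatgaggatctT
mt-Co1: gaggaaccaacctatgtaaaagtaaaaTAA
mt-Nd6: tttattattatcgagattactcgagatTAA

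Libraries held 15081922 to 23222704 counts. Of the sedentary libraries, 2 stood apart from the rest of their group. The 11 beta cell genes of the list (which include the insulin genes) that were found in the table took 0.864% of the counts of sedentary 1 and 4.06% of those of sedentary 2, against 16.3% to 23.04% in sedentary 3 to 5 and 9.02% to 17.8% in the exercise libraries. The 30 genes of the small intestine list took 2.06% and 3.11% in sedentary 1 and 2, 0.453% to 0.666% in sedentary 3 to 5 and 0.0235% to 0.105% in exercise. The 34 genes of the acinar list, which encode the digestive enzymes of the exocrine pancreas, took 13.8% to 29.2% in sedentary and 30.8% to 53.7% in exercise libraries. No gene of these 3 lists was at 0 throughout a group. The values below are given with all 10 libraries. Many are therefore also given with the 8 libraries left after removing sedentary 1 and 2, a set chosen after the data were seen. In such bulk RNA, fewer cells of a type and less RNA per cell cannot be told apart.

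All 13 protein genes and both ribosomal RNAs had counts, and the transfer RNAs had almost none. Summed over the 10 libraries, the protein genes held 658 to 1913539 counts each and the ribosomal RNAs 32580 (mt-Rnr1) and 45928 (mt-Rnr2). Of the 22 transfer RNAs, 12 had a count and 10 were at 0, which allows up to 3 counts of 183872005, or 0.0163 CPM (counts scaled to a common library size). The 12 held 79 counts in all. mt-Tl1 and mt-Tm, the transfer RNAs just before mt-Nd1 and mt-Nd2 on the genome, had the most, with 30 and 29. mt-Tm had 10, 10, 2, 4 and 1 counts in sedentary 1 to 5 and 0, 0, 0, 1 and 1 in exercise 6 to 10. All transfer RNAs fell below the filter on low counts. Without that filter edgeR called 0 of the 12 with a count, against 7.19% of all genes in that setting (6.2% lower, 0.995% higher). Of the 12, 1, mt-Tm, had an unadjusted p under 0.05 (edgeR adjusted p = 0.0613), against 6236 of all 28053 genes in that setting. Mature transfer RNAs are short and have no poly(A) tail, and the kit named in the labels is one for mRNA. After the filter on low counts, 15 of the 37 genes remained for testing, namely the 13 protein genes and the 2 ribosomal RNAs.

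Levels per length spanned about 3 orders of magnitude between the members. In CPM per kilobase of transcript, mt-Co1, the catalytic subunit of complex IV (cytochrome c oxidase), was highest. It reached 9055 ± 5710 in the sedentary and 4650 ± 869 in the exercise group (levels, shares and ratios are given ± SD with n = 5 per group, and log2 fold changes ± SE). mt-Nd6, the complex I (NADH dehydrogenase) subunit read in the other direction, was lowest at 6.57 ± 1.68 and 7.44 ± 2.52 CPM per kb. The ratio per length of mt-Co1 to mt-Nd6 was 975 as a mean over the 10 libraries. In decreasing order of the mean level over all 10 libraries, still per length, the genes were mt-Co1, mt-Co2, mt-Co3, mt-Atp6, mt-Atp8, mt-Cytb, mt-Nd4, mt-Nd1, mt-Nd2, mt-Nd4l, mt-Nd5, mt-Nd3, mt-Rnr1, mt-Rnr2 and mt-Nd6. The 3 complex IV genes and mt-Atp6 thus led, the complex III gene mt-Cytb and 6 complex I genes followed, and the ribosomal RNAs lay below these. This is an order in the libraries, which came from a kit for mRNA. How evenly the kit captured these RNAs was not tested, so the order in the cells may differ, above all for the ribosomal RNAs and mt-Nd6. Full transcript lengths were used with no correction for fragment size, and counts of the nuclear copies described further on were not added.

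Some neighbours in that order could not be told apart. mt-Atp8 was above mt-Cytb in 4 of 10 libraries and mt-Nd4l above mt-Nd5 in 5. mt-Rnr1 was above mt-Rnr2 in 7, and mt-Nd4 above mt-Nd1 and mt-Nd5 above mt-Nd3 in 8 each. mt-Co1 over mt-Co2, mt-Co2 over mt-Co3 and mt-Co3 over mt-Atp6 held in 9 libraries each, with mean ratios per length of only 1.18, 1.05 and 1.05. The other steps held in 10 of 10 libraries. The largest were from mt-Nd3 to mt-Rnr1 (mean ratio per length 5.33, range 1.94 to 8.06) and from mt-Rnr2 to mt-Nd6 (20.2, range 11.5 to 46.8).

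**Figure D1:**
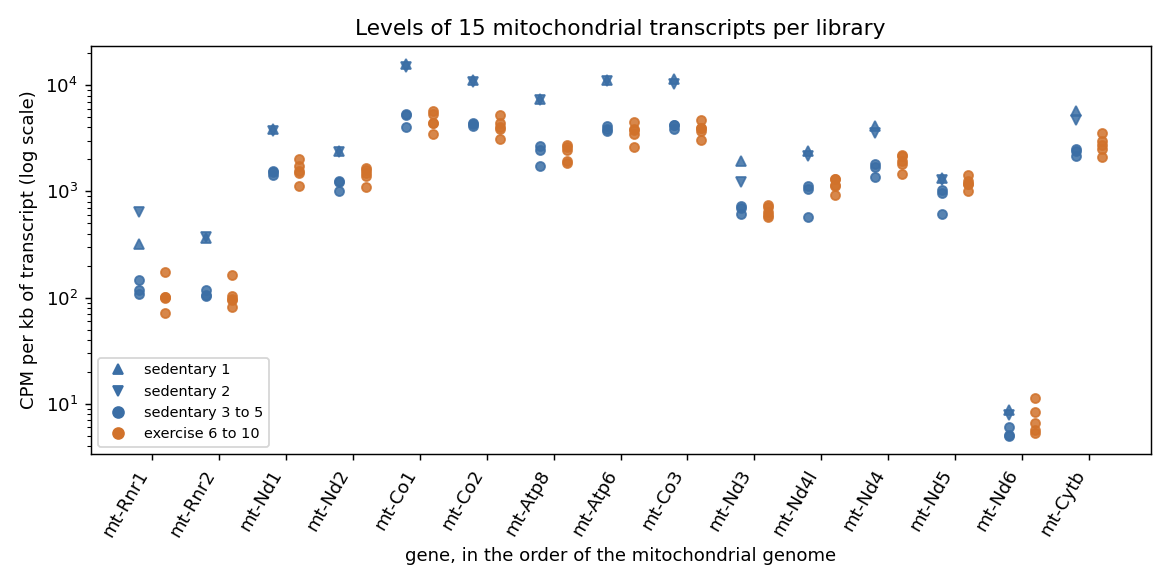
Level of each of the 15 tested mitochondrial genes in each library, in CPM per kb on a log axis, with genes in genome order, blue for sedentary and orange for exercise libraries, and triangles for sedentary 1 and 2. Sedentary 1 and 2 lie above the other sedentary libraries for every gene shown, mt-Co1 reaches 15680 CPM per kb and mt-Nd6 stays between 5.02 and 11.4.

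Between exercise and sedentary libraries no mitochondrial gene passed the test. By edgeR's quasi-likelihood test with Benjamini-Hochberg adjustment over the 15298 genes tested, 0 of 15 were called at an adjusted p of 0.05, while 11.4% of all genes tested were called lower and 2.44% higher in exercise (13.9% in either direction). At an unadjusted p under 0.05, 4 of the 15 passed, against 33.4% of all genes. DESeq2 called 0 of 15, with 8 at an unadjusted p under 0.05 (38.5% of all genes), and called 24.4% of all genes (17.3% lower, 7.17% higher). limma-voom called 0 of 15, with 0 at an unadjusted p under 0.05 (34% of all genes), and 3.37% of all genes (2.22% lower, 1.16% higher). In CPM the groups overlapped for 15 of 15 members, while over all genes 11.4% lay wholly lower and 6.24% wholly higher in exercise. The fold changes of 13 of the 15 were below 0, with a median log2 fold change of -0.67 against -0.00 for all genes tested. Without sedentary 1 and 2, 0 of 15 were called (12.8% of all genes called, 4.1% higher and 8.68% lower), 6 were below 0 and 9 above, and the median was 0.06.

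mt-Co1 took more counts than any other member in every library, a quantity that also grows with a gene's length. It held 24230, 22970, 8341, 8159 and 6250 CPM in sedentary 1 to 5 and 8743, 8241, 5355, 6812 and 6767 CPM in exercise 6 to 10. The first pair of sedentary libraries was far above all others, and sedentary 3 to 5 lay within or near the exercise range. The log2 fold change was -0.96 ± 0.44 (SE, edgeR adjusted p = 0.155) with 10 libraries and -0.05 (adjusted p = 0.899) with 8. Sedentary 1 and 2 were the highest for the other complex IV genes too. mt-Co2, which holds the site that receives electrons from cytochrome c, had 2840 to 7640 CPM in sedentary and 2125 to 3598 in exercise libraries (-0.74 ± 0.36, edgeR adjusted p = 0.173). mt-Co3, a further core subunit of that complex, had 3021 to 9028 and 2383 to 3683 CPM (-0.82 ± 0.37, adjusted p = 0.149, edgeR). With 8 libraries the log2 fold changes of mt-Co2 and mt-Co3 were -0.02 and -0.06 (edgeR adjusted p = 0.951 and 0.848).

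The 2 ATP synthase genes were close to these. mt-Atp6, part of the proton channel, held 7617, 7435, 2787, 2613 and 2503 CPM in the sedentary and 3080, 2648, 1798, 2565 and 2375 CPM in the exercise libraries. Again the sedentary libraries 1 and 2 were high and the groups overlapped (-0.88 ± 0.39, edgeR adjusted p = 0.145). mt-Atp8, a small membrane subunit, ranged over 351.5 to 1511 CPM and 374.6 to 563.9 CPM (-0.89 ± 0.41, edgeR adjusted p = 0.158). With 8 libraries the log2 fold changes of mt-Atp6 and mt-Atp8 were -0.06 and 0.06 (edgeR adjusted p = 0.872 and 0.878).

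The ribosomal RNAs had the most negative fold changes among the members, with mt-Co1 beside them. mt-Rnr1, the RNA of the small ribosomal subunit, held 304.4, 608.0, 138.9, 103.2 and 113.8 CPM in sedentary 1 to 5 and 167.2, 94.72, 68.41, 96.86 and 97.25 CPM in exercise 6 to 10. Sedentary 2 was highest by far, sedentary 1 came next, and exercise 6 lay above sedentary 3 to 5. Its log2 fold change was -1.27 ± 0.50 with an adjusted p of 0.109 (edgeR), the smallest among the members, and -0.16 (adjusted p = 0.711) with 8 libraries. mt-Rnr2, the RNA of the large subunit, held 580.2, 584.8, 185.8, 166.6 and 164.6 CPM in sedentary and 258.4, 152.1, 129.1, 151.5 and 165.3 CPM in exercise libraries. Exercise 6 exceeded sedentary 3 to 5 here too, and the log2 fold change was -0.97 ± 0.43 (edgeR adjusted p = 0.142) with 10 libraries and 0.01 (adjusted p = 0.972) with 8.

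The complex I and complex III genes had log2 fold changes between -0.67 and 0.20. mt-Nd1, which follows mt-Rnr2 on the genome with mt-Tl1 between them, had a log2 fold change of -0.61 ± 0.35 (edgeR adjusted p = 0.235). mt-Nd3, among the smallest subunits, had one of -0.67 ± 0.31 (edgeR adjusted p = 0.160). mt-Nd2 (-0.20 ± 0.29), mt-Nd4 (-0.40 ± 0.34) and mt-Nd4l (-0.34 ± 0.35), all membrane subunits of the proton pump, had edgeR adjusted p-values of 0.628, 0.395 and 0.479. mt-Cytb, the cytochrome b of complex III, stood at -0.33 ± 0.33 (edgeR adjusted p = 0.460). Of these 6, mt-Nd3 was at -0.02 with 8 libraries and the other 5 were above 0, at 0.10 to 0.36 (edgeR adjusted p = 0.214 to 0.932 for the 6).

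mt-Nd5 and mt-Nd6 had fold changes above 0 with 10 libraries, and both were below 0 (-0.12 and -0.18) when only library totals scaled the counts. mt-Nd5, the largest complex I subunit encoded here, held 2463, 2323, 1773, 1880 and 1109 CPM in the sedentary and 2266, 2626, 1828, 2121 and 2142 CPM in the exercise libraries. Its groups lay over each other, with sedentary 5 lowest, and the log2 fold change was 0.20 ± 0.24 (edgeR adjusted p = 0.547), or 0.49 (adjusted p = 0.147) with 8 libraries. mt-Nd6 held 4.54, 4.10, 2.61, 3.15 and 2.64 CPM in sedentary and 5.92, 2.93, 3.40, 4.32 and 2.73 CPM in exercise libraries, from 45 to 106 counts per library. Exercise 6 was highest, and without it the log2 fold change went from 0.18 ± 0.28 (edgeR adjusted p = 0.641) to -0.02. With 8 libraries the log2 fold change of mt-Nd6 was 0.48 (edgeR adjusted p = 0.276).

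**Figure D2:**
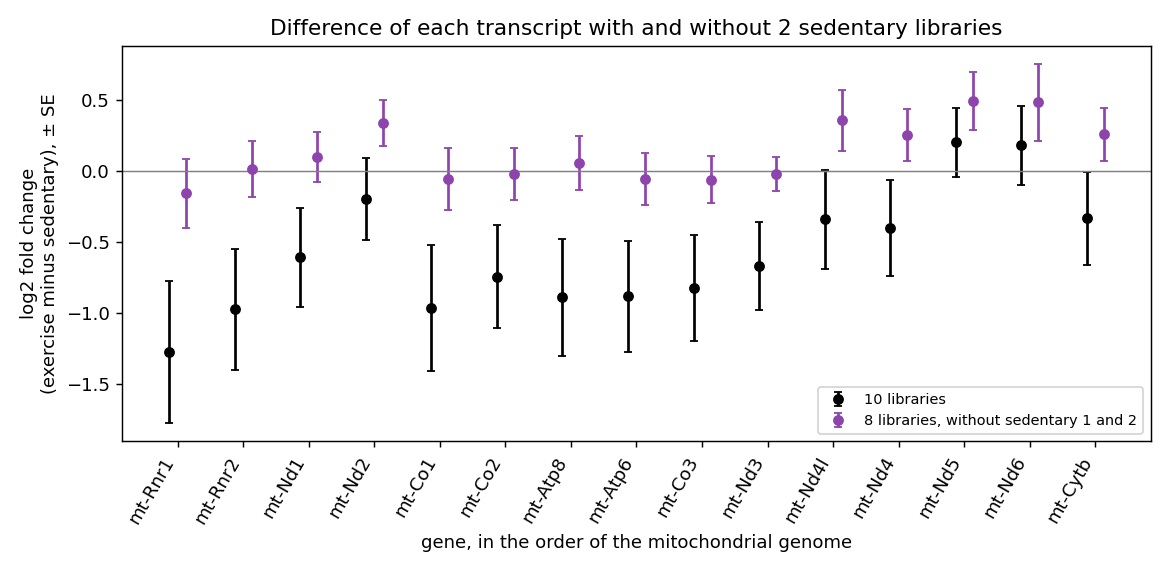
Log2 fold change of exercise over sedentary (edgeR) with its standard error for the 15 tested genes in genome order, black for 10 libraries and purple for the 8 libraries without sedentary 1 and 2. The values run from -1.27 for mt-Rnr1 to 0.20 for mt-Nd5 with 10 libraries and from -0.16 to 0.49 for the same 2 genes with 8.

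The scaling of the libraries set how these differences read. The factors by which trimmed mean of M-values (TMM) scaling multiplied the library totals lay between 0.669 and 1.2. With library totals alone the median over all genes tested moved to -0.34 and that of the 15 members to -0.99, so with 10 libraries the members lay lower than the median gene under both scalings. In that setting 8 of 15 members were called lower in exercise by edgeR (mt-Nd3, mt-Co1, mt-Co2, mt-Co3, mt-Atp6, mt-Atp8, mt-Rnr1 and mt-Rnr2), against 28.8% of all genes called lower, 1.04% higher and 29.9% in either direction. Upper-quartile scaling moved the median of all genes to 0.105 and that of the 15 members to -0.53. It called 0 of 15, against 1778 lower and 499 higher of the 15298 genes tested.

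As a share of all counts, the 37 genes took 7.75%, 7.41%, 3.40%, 3.13% and 2.84% in sedentary 1 to 5 and 2.82%, 2.88%, 2.05%, 1.84% and 2.79% in exercise 6 to 10. Sedentary 1 and 2 were well above the rest, and the lowest sedentary library lay below the highest exercise library. With the counts of the nuclear copies of these genes, described further on, added to the sum, the groups did not overlap, at 3.05% to 8.11% in sedentary and 1.91% to 2.99% in exercise libraries. Exercise 9, with the lowest mitochondrial share, had the highest acinar share. With the acinar and small intestine lists left out of the total, the mitochondrial share was 11.3%, 8.91%, 4.43%, 4.08% and 3.39% in sedentary and 4.603%, 4.32%, 3.05%, 3.98% and 4.04% in exercise libraries. On that scale sedentary 3 to 5 and the exercise libraries covered almost the same range, and the log2 difference of the group means of log shares went from -0.87 to -0.53. It was -0.36 on the scale of all counts with 8 libraries. What part the acinar, intestinal and beta cell transcripts have in these differences was not tested.

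The nuclear genes of the same respiratory complexes took 0.968%, 1.48%, 0.541%, 0.443% and 0.661% of counts in sedentary and 0.334%, 0.304%, 0.325%, 0.224% and 0.322% in exercise libraries, for 70 of 85 listed genes found in the table. All 5 exercise libraries were below all sedentary ones. In the edgeR fit 42 of the 70 fell, 0 rose and all 70 were below 0 (median log2 fold change -1.04), where 11.4% of all genes were called lower. With 8 libraries 24 of 70 fell (median -0.44; 8.68% of all genes). limma-voom called 1 of 70 (2.22% of all genes called lower) and DESeq2 61 (17.3%). These calls changed when single libraries were left out, and so did those over all genes. Over all genes, edgeR called 1745 of 15298 lower with 10 libraries. With single libraries left out this ranged from 800 of 15494 (without exercise 8) to 2721 of 15405 (without sedentary 4). Among the 70 genes the edgeR count was 0 without exercise 8 or 9, 1 without exercise 7 or 10 and 2 without exercise 6. It was 3 without sedentary 1, 8 without sedentary 2, 28 without sedentary 5, 57 without sedentary 3 and 62 without sedentary 4. All 70 stayed below 0 in each of these, with a median between -1.17 and -0.74. Counts of mitochondrial mRNA per count of these nuclear genes were 7.91, 4.93, 6.22, 7.01 and 4.25 in sedentary and 8.32, 9.42, 6.23, 8.17 and 8.59 in exercise libraries. This ratio was higher on average in exercise (8.15 ± 1.17 against 6.06 ± 1.49), the opposite direction to the mitochondrial share of counts, with 4 of 5 exercise libraries above every sedentary one.

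**Figure D3:**
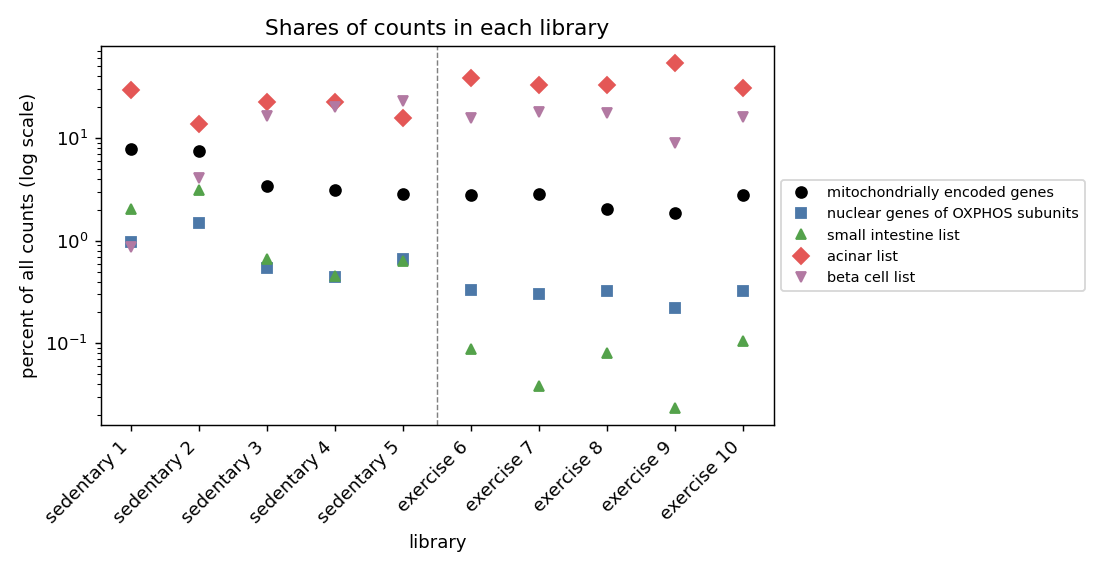
Share of each library's counts, in percent on a log axis, taken by the mitochondrially encoded genes, the nuclear genes of oxidative phosphorylation (OXPHOS) subunits, and the small intestine, acinar and beta cell lists, with sedentary libraries left and exercise libraries right of the dashed line. The mitochondrial share (black) lies between 1.84% and 7.75% and is highest in sedentary 1 and 2, where the small intestine list is highest and the beta cell list lowest.

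In the make-up of the mitochondrial mRNA, which does not depend on library totals, 3 of the 4 complexes did not overlap between the groups. Complex I transcripts took 21.8%, 21.3%, 26.5%, 27.7% and 24.6% of the counts of the 13 protein genes in sedentary 1 to 5 and 28.5%, 31.5%, 31.1%, 30.8% and 30.8% in exercise 6 to 10. Every exercise library was above every sedentary one. Complex IV transcripts took 56.6%, 57.3%, 51.8%, 50.6% and 53.0% against 48.6%, 46.8%, 47.0%, 46.4% and 47.1%. Here every exercise library was below every sedentary one. In both complexes sedentary 3 to 5 lay nearer to the exercise range than sedentary 1 and 2. Complex III, which has mt-Cytb alone, took 9.56 ± 0.996% against 11.5 ± 0.477% with no overlap, and the ATP synthase 12.2 ± 0.797% against 10.8 ± 0.479% with overlap. The 4 shares are parts of the same sum, so a higher share of complex I goes with lower shares elsewhere. They are therefore not separate results, and no count over all genes matches them. These are descriptions with no test, because the members were grouped with earlier results of these data known.

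**Figure D4:**
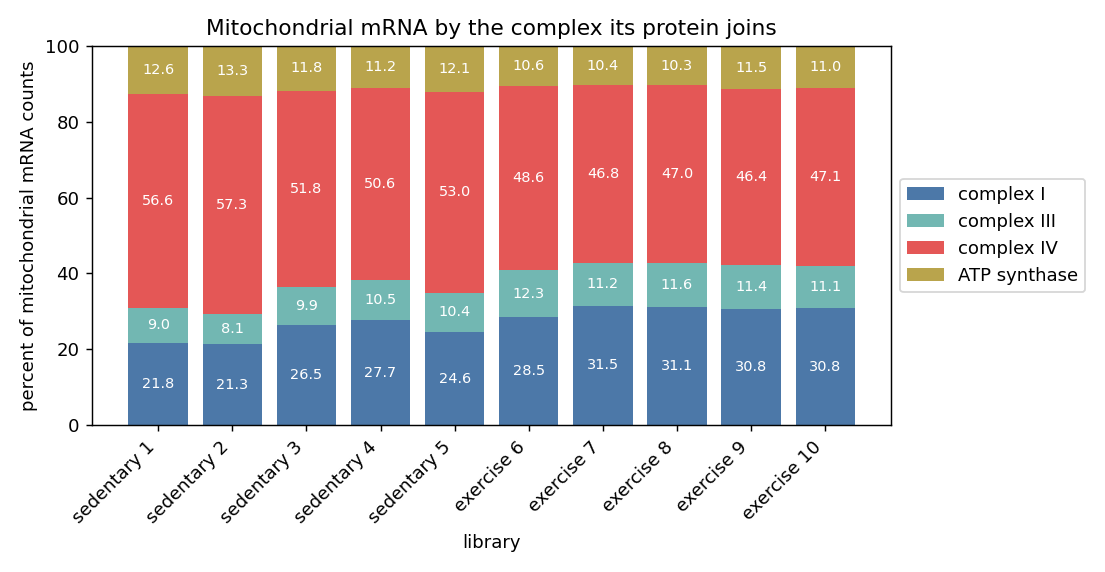
Percent of the counts of the 13 mitochondrial protein genes in each library that came from genes of complex I (7 genes), complex III (1), complex IV (3) and the ATP synthase (2), stacked to 100%. The complex I segment is 21.3% to 27.7% in sedentary and 28.5% to 31.5% in exercise libraries, and the complex IV segment 50.6% to 57.3% and 46.4% to 48.6%.

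By gene, the shares of mt-Nd2, mt-Nd5 and mt-Cytb were above the sedentary range in all exercise libraries, that of mt-Atp6 was below it, and 9 of 13 overlapped. Over all 15298 genes tested, the ratio to summed mitochondrial mRNA did not overlap for 4.06% with exercise higher and 6.79% with exercise lower. Nearly all of those genes lie outside that sum, whereas each member is part of it, so these rates are not fully comparable with the members' counts. mt-Nd5 took 3.41%, 3.47%, 6.30%, 6.79% and 4.69% of mitochondrial mRNA in sedentary and 6.88%, 8.57%, 8.71%, 7.77% and 8.20% in exercise libraries. Its lowest exercise value was just above its highest sedentary value, and its spread was wider among the sedentary libraries (SD 1.57) than among the exercise libraries (SD 0.737). mt-Nd2 took 3.48%, 3.65%, 4.54%, 4.66% and 4.44% against 5.00%, 5.59%, 5.39%, 5.72% and 5.53%, with a clear gap. mt-Cytb took 8.11% to 10.5% against 11.1% to 12.3%.

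mt-Atp6 took 10.5%, 11.1%, 9.90%, 9.43% and 10.6% of mitochondrial mRNA in sedentary and 9.35%, 8.64%, 8.56%, 9.39% and 9.10% in exercise libraries, so that the ranges nearly touched. mt-Co1 took 33.5%, 34.3%, 29.6%, 29.5% and 26.4% against 26.5%, 26.9%, 25.5%, 24.9% and 25.9%. Only sedentary 5 reached into the exercise range. mt-Nd4 overlapped only at its edges (7.33% to 8.98% against 8.97% to 9.85%), and mt-Nd1 had close means, 5.33 ± 0.256% and 5.45 ± 0.224%. With mt-Co1 left out of the sum, mt-Nd2 and mt-Cytb were above, mt-Atp6 and mt-Co3 below, and mt-Nd5 overlapped.

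The ratios of 2 pairs of neighbours on the genome were tested within libraries. mt-Nd6 lies beside mt-Cytb, with a transfer RNA between, and is read in the other direction, and its counts per 1000 of mt-Cytb were 0.697, 0.754, 0.940, 1.09 and 1.08 in sedentary and 1.46, 0.849, 1.40, 1.39 and 0.946 in exercise libraries. Exercise 6, 8 and 9 were above all sedentary libraries and the other 2 were not. The log2 ratio differed by 0.39 (-10.12 ± 0.29 against -9.73 ± 0.37, n = 5), with p = 0.0873 and an adjusted p of 0.119 over the 2 ratios (exact two-sided permutation test, whose smallest possible p is 0.00794). mt-Rnr2, the ribosomal RNA before mt-Nd1 in the same precursor, had 157, 166, 126, 114 and 121 counts per 1000 of mt-Nd1 in sedentary and 135, 92.0, 119, 103 and 116 in exercise libraries. Its log2 ratio differed by -0.27 (-2.89 ± 0.24 against -3.16 ± 0.21), with p = 0.119 and adjusted p = 0.119 by the same exact permutation test. With 8 libraries the differences were 0.19 and -0.10 (both with an adjusted p of 0.536, exact permutation). The 2 ribosomal RNAs together were 0.964% to 1.75% of mitochondrial counts in sedentary and 0.799% to 1.28% in exercise libraries.

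Stretches of mitochondrial DNA have been copied into nuclear chromosomes, where they are annotated as pseudogenes and can share reads with the genes they came from. Of 7 such pseudogenes that lie next to each other on mouse chromosome 1 in GENCODE M21, 5 were identical to a mitochondrial gene over all aligned bases (Gm10925 to mt-Atp6 over 678, Gm28437 to mt-Co3 over 783, Gm28439 to mt-Nd4 over 876, Gm28661 to mt-Co2 over 681 and Gm10222 to mt-Nd4l over 294). Gm28438 differed from mt-Nd3 at 1 of 345 bases (T3C, counted from 1 at the start of the mitochondrial gene, with the mitochondrial base first). Gm29216 matched the last 492 bases of mt-Co1 with 6 mismatches, all near its start (T1056A, C1057T, A1059G, A1060G, C1062A and A1066T). The 2 that differ are shown beside their mitochondrial genes over 120 bases, with differing bases in capitals, because within the aligned stretches only these bases tell a copy from its mitochondrial gene.
mt-Co1: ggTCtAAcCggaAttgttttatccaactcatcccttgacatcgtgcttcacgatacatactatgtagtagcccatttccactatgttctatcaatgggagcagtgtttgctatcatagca
Gm29216: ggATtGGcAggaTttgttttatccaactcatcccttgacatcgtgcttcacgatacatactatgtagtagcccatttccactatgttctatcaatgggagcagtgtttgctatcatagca
mt-Nd3: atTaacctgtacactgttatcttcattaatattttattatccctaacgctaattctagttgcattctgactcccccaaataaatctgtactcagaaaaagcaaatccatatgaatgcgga
Gm28438: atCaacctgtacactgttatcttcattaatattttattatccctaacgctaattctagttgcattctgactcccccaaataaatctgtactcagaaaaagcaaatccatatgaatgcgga

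Of the pseudogenes 2 held sizeable counts, the same 2 that carry mismatches. Gm29216 had 285579 counts over the 10 libraries and Gm28438 9257, while the identical copies were at or near 0. Of the summed counts of Gm29216 and the whole of mt-Co1, Gm29216 took 11.8%, 11.8%, 12.2%, 12.7% and 21.6% in sedentary libraries. In exercise libraries it took 14.4%, 12.0%, 11.8%, 12.9% and 12.6%. Sedentary 5 stood out and the rest were close to each other. Its level was 2076 ± 1012 in sedentary and 1057 ± 274 CPM in exercise libraries (log2 fold change -0.97 ± 0.35, edgeR adjusted p = 0.0866; DESeq2 0.0309). Gm28438 took 10.3% to 25.6% of its pair with mt-Nd3 in sedentary and 6.90% to 16.4% in exercise libraries. By words of 31 bases, 100% of mt-Co2, 99.9% of mt-Co3, 99.5% of mt-Atp6, 98.9% of mt-Nd4l, 98.1% of mt-Nd3, 63.9% of mt-Co1 and 62.8% of mt-Nd4 also occurred in a gene outside the mitochondrial genome, against 16.8% or less in the other 8 tested members and 0 in mt-Nd1 and mt-Rnr1. The counts of those 7 genes are uncertain to the extent that reads were split.

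Adding each copy's counts to the mitochondrial gene it shares most words with changed no call among the 15 members. The make-up by complex stayed apart between the groups, with complex I at 20.5% to 26.6% in sedentary and 27.4% to 30.5% in exercise and complex IV at 52.6% to 59.0% and 48.3% to 50.8%. By gene, mt-Co1 then lay below the sedentary range in all exercise libraries and mt-Atp6 overlapped, while mt-Nd2, mt-Nd5 and mt-Cytb were above as before.

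The nuclear genes that transcribe the mitochondrial genome gave few calls. Of 11 tested, 1 fell and 0 rose (edgeR, 10 libraries; background 11.4% lower, 2.44% higher), with a median log2 fold change of -0.03. The 1 was Mrpl12, a mitochondrial ribosomal protein that also binds the mitochondrial RNA polymerase. It held 62.5, 105.6, 22.5, 18.0 and 31.5 CPM in sedentary 1 to 5 and 18.4, 13.02, 14.6, 17.6 and 12.6 in exercise 6 to 10. Sedentary 1 and 2 were high and sedentary 4 lay below exercise 6 (-1.65 ± 0.45, edgeR adjusted p = 0.0373), and with 8 libraries the value was -0.63 ± 0.19 (edgeR adjusted p = 0.0606). Tfam, which packages the mitochondrial DNA and starts its transcription, had 24.1 ± 8.26 and 17.1 ± 1.08 CPM (-0.50 ± 0.21, edgeR adjusted p = 0.128). Polrmt, the RNA polymerase itself, had 19.7 ± 6.28 and 15.6 ± 1.58 CPM (adjusted p = 0.260), and Tfb2m, which opens the promoter, 15.6 ± 3.70 and 15.6 ± 1.57 CPM (adjusted p = 0.986). Mterf3, a negative regulator of this transcription, had 13.4 ± 1.28 and 16.2 ± 1.40 CPM (adjusted p = 0.15, edgeR; 0.0311 in DESeq2).

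Of 17 genes that maintain the mitochondrial DNA, 3 fell and 0 rose (11.4% and 2.44% of all genes), with a median of -0.06. Dna2, a nuclease and helicase that trims replication intermediates, held 4.66, 8.68, 2.11, 1.51 and 2.20 CPM in sedentary and 1.12, 1.37, 1.09, 0.708 and 0.976 CPM in exercise libraries. Each exercise library was below each sedentary one (-1.86 ± 0.49, edgeR adjusted p = 0.0321). Top1mt, the mitochondrial topoisomerase, had 3.84 ± 2.81 and 1.16 ± 0.406 CPM (-1.73 ± 0.50, edgeR adjusted p = 0.0462), and Primpol, a primase that restarts stalled forks, 7.66 ± 2.71 and 3.97 ± 0.873 CPM (-0.95 ± 0.28, edgeR adjusted p = 0.0456). With 8 libraries none of the 3 passed and each was smaller in size, with log2 fold changes of -0.85 ± 0.27 for Dna2, -0.74 ± 0.34 for Top1mt and -0.53 ± 0.23 for Primpol (edgeR adjusted p = 0.0696, 0.187 and 0.163). Polg, the catalytic subunit of the mitochondrial DNA polymerase, had 27.1 ± 6.31 and 28.8 ± 3.09 CPM (0.09, edgeR adjusted p = 0.708) and among the settings run was called in 1, without sedentary 1 and 2 (0.38, adjusted p = 0.049). Twnk, the replicative helicase, had 12.9 ± 3.42 and 12.2 ± 1.13 CPM (-0.08, edgeR adjusted p = 0.772).

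Of 34 genes that process, modify or stabilise mitochondrial RNA, edgeR called 0, against 11.4% of all genes lower and 2.44% higher. With single libraries left out 0 to 2 were called, and 951 to 3610 over all genes. The median log2 fold change was -0.29 with all 10 libraries. At an unadjusted p under 0.05 there were 10, against 33.4% of all genes. DESeq2 called 3 lower, against 17.3% of all genes, and limma-voom 0, against 2.22% of all genes lower and 1.16% higher. The 3 with the smallest p were Slirp (13.7 ± 4.91 and 8.75 ± 0.427 CPM, adjusted p = 0.0804, edgeR), which with Lrpprc forms the complex that stabilises mitochondrial mRNA, Mrm1, which methylates mt-Rnr2 (5.35 ± 0.725 and 3.87 ± 0.281 CPM, 0.0856), and Tbrg4, a protein of the FASTK family that acts on mitochondrial mRNA levels (30.7 ± 19.8 and 14.9 ± 2.27 CPM, 0.0938). Lrpprc held 47.4, 80.3, 45.1, 43.0 and 43.9 CPM in sedentary and 41.1, 37.9, 39.9, 38.4 and 41.0 CPM in exercise libraries. The groups did not overlap, with exercise lower, as in 11.4% of all genes, though sedentary 2 alone was far from the others. The edgeR adjusted p of Lrpprc was 0.155. Nsun4 of this list did not overlap either, with exercise lower (7.55 ± 3.41 and 4.47 ± 0.731 CPM). Grsf1 did not overlap with exercise higher (59.05 ± 9.71 and 73.03 ± 3.59 CPM), as in 6.24% of all genes. Mtpap, the poly(A) polymerase that completes the stop codons of mt-Nd4, mt-Cytb and mt-Co3, had 15.7 ± 4.18 and 11.7 ± 1.27 CPM (-0.42, edgeR adjusted p = 0.146).

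**Figure D5:**
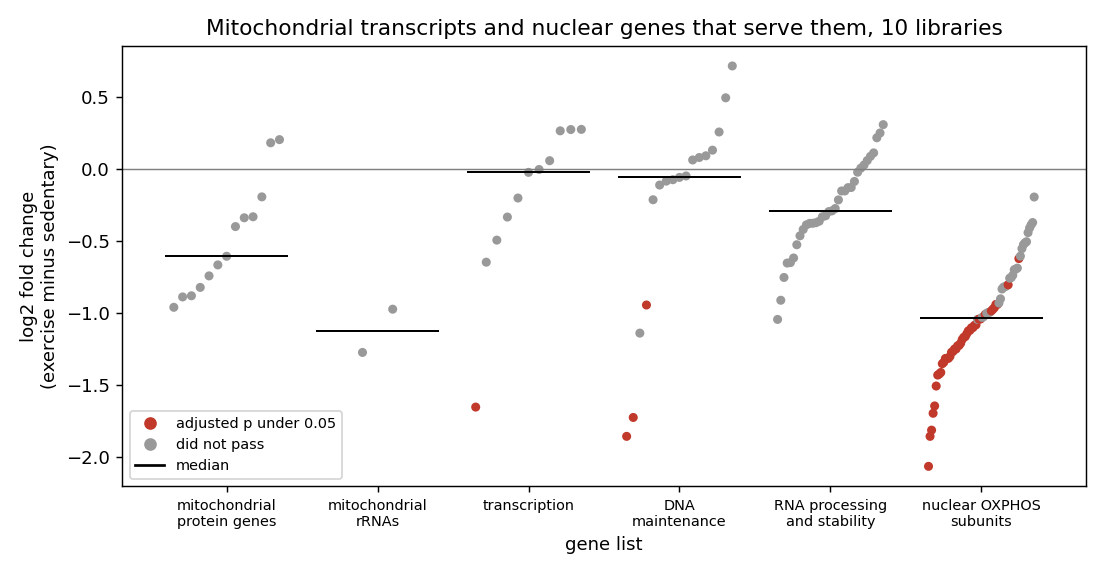
Log2 fold change of exercise over sedentary (edgeR, 10 libraries) for each tested gene of the mitochondrial genome and of the nuclear lists, with the median of each list as a bar and genes past an adjusted p of 0.05 in red. No mitochondrially encoded gene passes, 1 transcription and 3 DNA maintenance genes do, and 42 of 70 nuclear genes of oxidative phosphorylation subunits do.

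Each call in the 3 nuclear lists was lost on leaving out some of the single libraries. In all, 4 of 62 genes fell and 0 rose, against 11.4% and 2.44% of all genes. At an unadjusted p under 0.05 there were 17, against 33.4% of all genes. These shares are not above those of all genes. The number of calls was between 0 and 7 when single libraries were left out, and that over all genes between 951 and 3610. Mrpl12 and Dna2 lost their call without sedentary 1, without sedentary 2 and without any 1 of the exercise libraries, Primpol also without sedentary 3 and Top1mt also without sedentary 5. Small intestine transcripts were highest in sedentary 1 and 2, where the CPM of Mrpl12, Dna2, Top1mt and Primpol were also highest; their part in these calls was not tested.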

How the data were processed

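RNA of islets was sequenced in 10 libraries, 5 per group, with groups taken from the labels. Per the labels' protocols, RNA came from a column kit and libraries from a stranded mRNA kit. The deposited table holds the authors' estimated counts per Ensembl gene; per the submitters' processing notes the tools included fastp and kallisto, with no version named. The sources used here do not give the build, the annotation or how transcripts were combined into genes. Counts were rounded before testing, since 12.6% of values were not whole (tolerance 1e-06). No pair of libraries agreed within sampling noise (lowest chi-square per degree of freedom 9.59).

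Genes were tested in R 4.3.3 with edgeR 4.0.16 (quasi-likelihood, filterByExpr with minimum count 10 and minimum total 15, TMM factors, Benjamini-Hochberg over 15298 genes, threshold 0.05), a step tested on simulated data. CPM use TMM-scaled totals. Limits at 0 cover counting error alone, as reads carry no molecular identifiers and are not independent molecules. Ratios within libraries were compared by exact permutation. Sequences, lengths and gene order come from GENCODE M21 transcripts. Alternatives were RLE, library-total and upper-quartile scaling, other count filters, DESeq2 1.42.0, limma-voom (limma 3.58.1), the mitochondrial, acinar and intestinal genes left out of the scaling, the nuclear copies left out or added, and each library left out.

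The members, gene lists and tests were chosen with earlier results of these data known. Named were all members past the filter, the nuclear copies, the 3 genes of smallest p of each nuclear list, and Tfam, Polrmt, Tfb2m, Polg, Twnk, Lrpprc and Mtpap whatever they showed. Nsun4 and Grsf1 were added because their groups did not overlap. Of 35 listed RNA processing genes 34 were matched by symbol.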

Additional observations from a re-analysis of the deposited data

Results flagged for a closer look

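Among 114 sets of 5 values (a group's libraries for 1 gene, share or ratio), 11 had a lowest or highest library set apart from the other 4 by more than 0.71 of the group's range (Dixon's criterion). For independent sets of normally distributed values, chance gives such a value in about 1 of 20 sets. The sets here share libraries, genes and sums, so their number cannot be measured against that rate. Of the mitochondrial genes, mt-Rnr2 stood out in exercise 6, at 258.4 CPM. Within the mitochondrial mRNA, sedentary 5 was high for mt-Nd1 (5.772%) and for mt-Co2 (12.66%), exercise 7 was low for mt-Co3 (10.15%), and exercise 6 was low for complex I (28.52%). Of the nuclear copies, Gm29216 took 21.58% of its pair with mt-Co1 in sedentary 5, and Gm28438 took 25.6% of its pair with mt-Nd3 in sedentary 2. Among the nuclear genes, Twnk (18.95 CPM) and Lrpprc (80.27 CPM) were high in sedentary 2, Tfb2m was high in exercise 9 (18.29 CPM) and Mrm1 was low in sedentary 3 (4.104 CPM).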

How the results depend on the processing

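No paired analysis was possible because the replicate numbers run from 1 to 10 and none is shared by the groups. Of 15298 genes, 2119 were called in all 10 libraries, 4567 with library totals alone, 3739 by DESeq2, 516 by limma-voom and 951 to 3610 with single libraries left out. Called mitochondrial genes numbered 0 (0 to 0 with single libraries left out) and 8 with library totals alone. Of the 62 nuclear genes that serve the mitochondrial genome, 4 were called, against 13.9% of all genes. With library totals alone 23 were called (29.9% of all genes), and 2 without a filter (7.19%). At minimum count 50, 2 of 57 were called, against 1510 lower and 347 higher of all 12283 genes tested. DESeq2 called 9 of 62 (24.4% of all genes) and limma-voom 0 (3.37%). With 8 libraries 1 was called (12.8% of all genes), and with single libraries left out 0 to 7. The log2 difference of the mitochondrial share, -0.87, was -1.03 to -0.67 with single libraries left out and 0.45 per count of nuclear OXPHOS genes. The ratio differences kept their direction under every alternative run (adjusted p 0.0952 to 0.536).

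Log2 fold changes changed sign with 8 libraries for mt-Nd1 (0.10), mt-Nd2 (0.34), mt-Nd4 (0.25), mt-Nd4l (0.36), mt-Cytb (0.26), mt-Atp8 (0.055), mt-Rnr2 (0.014), Gm28438 (0.038), Tfb2m (0.24) and Twnk (0.11); with library totals alone for mt-Nd5 (-0.12), mt-Nd6 (-0.18), Mterf3 (-0.071) and Polg (-0.25); and without exercise 6 for mt-Nd6 (-0.024, range -0.024 to 0.34 over single libraries left out). Tfb2m, at -0.01, was 0.13 with upper-quartile factors, 0.011 at minimum count 50, 0.001 by DESeq2, 0.025 by limma-voom and -0.11 to 0.13 with single libraries left out. Twnk, at -0.08, was 0.057 with upper-quartile factors and -0.13 to 0.10 with single libraries left out. The causes were not tested. Depth limits mt-Nd6, with 45 to 106 counts per library.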
